A study of Mus musculus with 8 samples.

Results

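MHC class II genes encode the machinery by which macrophages and dendritic cells show extracellular peptides to CD4+ T cells. The 10 genes described here were taken by name from a table of 55450 genes: H2-Aa, H2-Ab1, H2-Eb1, H2-DMa, H2-DMb1, H2-DMb2, H2-Oa, H2-Ob, Cd74 and Ciita. All 10 were found and all 10 passed the filter on low counts, which left 16467 genes to be tested. The study asked how tumor-infiltrating macrophages differ from resident microglia in a mouse glioma, in work on macrophage immunosuppression. GL261, a mouse glioma line, was grown in the brain of mice labelled wild type and isogenic with the tumor, with no further allele, agent, age or strain name given. Both populations were FACS-sorted from such tumors as F4/80+ CD11b+ Ly6G- cells that were low or negative for Ly6C. Microglia (3 libraries) were gated on low CD45 and on low or absent CD49d. Bone marrow-derived macrophages, called BMDM in the labels and here (5 libraries), were CD45+ and CD49d high, and came from the tumor, not from marrow culture. Neither gate used a class II protein. Whether the libraries came from separate mice is not stated, so each p-value reflects only how these libraries vary, which may be technical variation.

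A class II molecule is a pair of an alpha and a beta chain, in the mouse H2-Aa with H2-Ab1, or an E alpha chain with H2-Eb1. The pair assembles in the endoplasmic reticulum around the invariant chain, encoded by Cd74, which blocks the groove and steers the complex to endosomes. There H2-M, made of H2-DMa with H2-DMb1 or H2-DMb2, exchanges the remnant of the invariant chain for peptide, and H2-O, made of H2-Oa and H2-Ob, restrains H2-M. Ciita is the coactivator that switches these genes on through a shared X and Y box promoter module. Resident microglia are known for low class II levels at rest, and interferon gamma is the classical inducer.

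The promoter module is shown because it is the sequence that most of these genes have in common. RefSeq promoter windows (GRCm38.p6, from 250 bases before to 50 bases after the start of transcription) were matched for 7 of the 10 genes, in 8 windows. The following stretches run 5′ to 3′ along the gene's own strand, and capitals mark X-box letters on the left and the Y box on the right.
H2-Eb1: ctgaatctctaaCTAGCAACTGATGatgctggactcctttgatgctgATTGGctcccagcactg
H2-Ob: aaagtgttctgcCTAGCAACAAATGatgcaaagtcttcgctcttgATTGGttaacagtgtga
H2-DMb2: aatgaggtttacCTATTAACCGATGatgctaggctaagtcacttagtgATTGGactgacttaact
H2-Aa: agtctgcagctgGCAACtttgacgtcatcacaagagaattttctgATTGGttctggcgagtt
H2-Oa: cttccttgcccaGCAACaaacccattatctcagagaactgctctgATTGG
These lie at chr17:34305761-34305824 on the plus strand for H2-Eb1, chr17:34238803-34238864 plus for H2-Ob and chr17:34145111-34145175 plus for H2-DMb2. The H2-Aa stretch is chr17:34287855-34287916 on the minus strand, and that of H2-Oa is chr17:34092291-34092340 plus. The stretches of H2-Eb1, H2-Ob, H2-Aa and H2-DMb2 touch no annotated exon, although that of H2-DMb2 lies within the span of its longer gene model. That of H2-Oa ends on the first base of its first exon.

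The X-box letters searched were CTA, any 2 bases, AAC, any 2 bases and ATG, the Y box was ATTGG, and both strands were read. The letters were spelled with these promoters in view, so the matches are a description and not a test. The X-box letters occurred in 48 of 32851 promoter windows of the genome (0.146%), and ATTGG alone in 37.4%. X-box letters followed by ATTGG, 20 to 45 bases further on, occurred in 4 windows (0.0122%). All 4 were class II genes, namely H2-Eb1, H2-Ob, H2-DMb2 and H2-DMb1. H2-Aa and H2-Oa held the shorter letters GNAAC before ATTGG at a like spacing, a pair present in 1390 windows (4.23%). In the 5 stretches printed, 33 to 36 bases separated the first letters of the boxes. Neither H2-DMa window held such a pair. Of the genes whose promoters held a pair, H2-Aa and H2-Eb1 were called in the comparison below. H2-DMb1, H2-Ob, H2-Oa and H2-DMb2 were not called, which does not show that their levels are alike. For H2-DMb1 all BMDM libraries were above all microglia libraries. The part of the module in the differences was not tested.

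**Figure D1:**
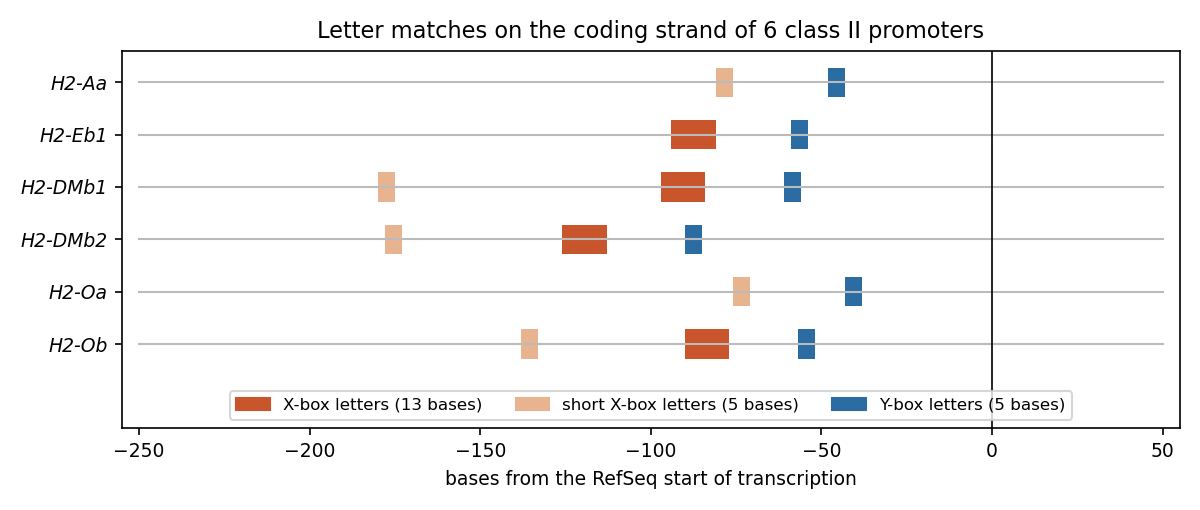
Positions of X-box, short X-box and Y-box letters in 6 class II promoters, in bases from the RefSeq start of transcription (x axis, black line at the start), on the coding strand. In H2-Eb1, H2-Ob, H2-DMb1 and H2-DMb2 a full X-box match stands left of a Y box; in H2-Aa and H2-Oa the left match is the short form of the X box.

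Library totals ran from 5890406 to 16659154 counts. BMDM 4, BMDM 5 and microglia 3 stood apart in detection. Of genes expected at 20 or more counts from their mean level, BMDM 4 lacked 10.8%, BMDM 5 lacked 7.47% and microglia 3 lacked 4.92%, against 0.525% to 1.45% in the other libraries. The ribosomal RNA-overlapping model Gm42418 took 14.8% to 19.8% of counts in BMDM 1 to 3 and 34.0% to 48.9% in the other 5 libraries. Values below are CPM, counts scaled to library size with TMM factors. They count 3′ ends, and levels are not compared between genes. In sorted bulk RNA, fewer cells making a transcript and less transcript per cell cannot be told apart.

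The 10 genes together took 0.273%, 0.224% and 0.196% of all counts in microglia 1, 2 and 3. In the BMDM they took 1.42%, 1.39%, 2.96%, 2.30% and 0.467%. Every BMDM library was above every microglia library, and BMDM 5 stood closest to microglia. Of the 10 genes, 4 were called higher in BMDM (H2-Aa, H2-Ab1, H2-Eb1 and Ciita) and 0 were called lower, in edgeR quasi-likelihood tests (Benjamini-Hochberg adjusted p under 0.05). Over all genes tested, 1.11% were called higher and 0.814% lower. The log2 fold change was positive for 8 of the 10 genes, against 53.1% of all genes, and its median was 1.69, against 0.08. All BMDM libraries were above all microglia libraries for 4 of the 10 genes (H2-Aa, H2-Ab1, H2-DMb1 and Cd74) and for 4.32% of all genes.

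**Figure D2:**
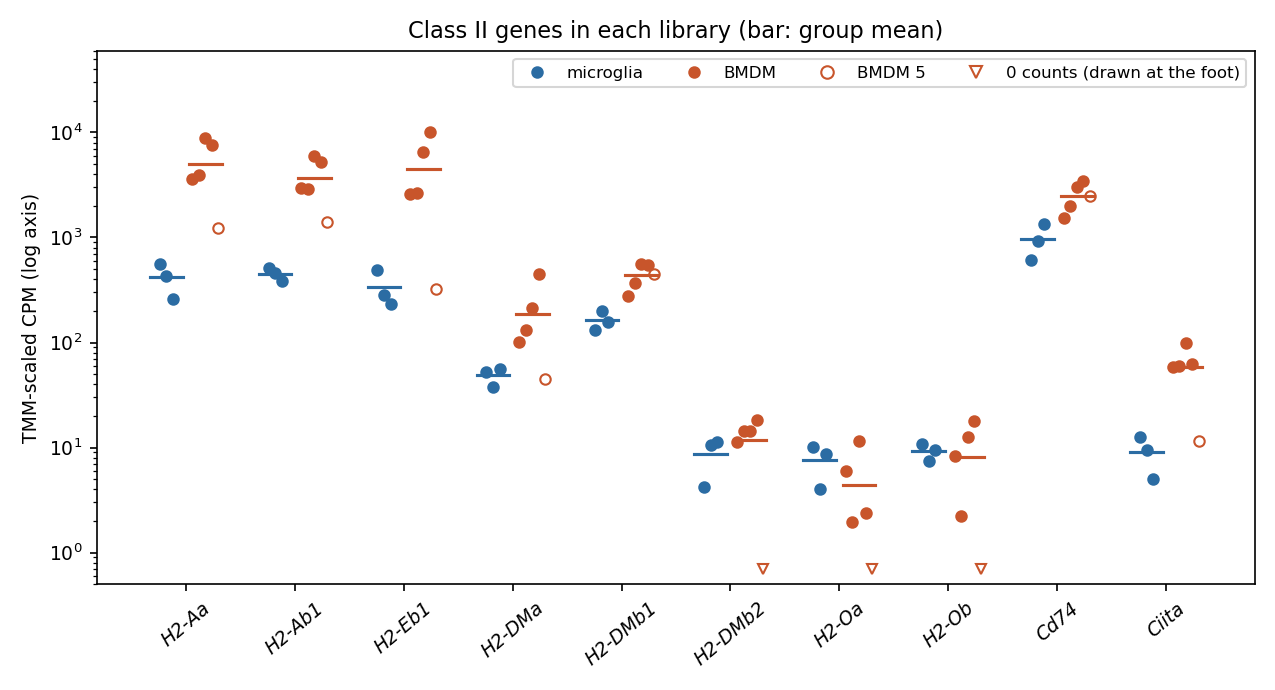
TMM-scaled CPM on a log axis (y) for the 10 class II genes (x); each point is 1 library, bars are group means, the open circle is BMDM 5 and triangles at the foot are 0 counts. The classical chains and Ciita are apart in microglia and BMDM 1 to 4 with BMDM 5 lower, whereas H2-DMb1 and Cd74 of BMDM 5 lie among the other BMDM.

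Among the 10 genes the classical chains carried the largest differences. H2-Aa, the alpha chain of the A molecule, is on chromosome 17 (34282744 to 34287823, minus strand, GRCm38). It was at 561.1, 432.8 and 259.5 CPM in microglia 1 to 3 and at 3583, 3923, 8908, 7609 and 1222 CPM in BMDM 1 to 5. All BMDM libraries were above all microglia libraries, with BMDM 3 and BMDM 4 highest and BMDM 5 lowest of the BMDM. The mean was 5049 ± 3143 CPM (SD, n = 5) in BMDM and 418 ± 151 CPM (n = 3) in microglia, 12.1-fold higher in the fit (log2 fold change 3.59, SE 0.68, adjusted p = 0.0124, edgeR quasi-likelihood). The call was lost without microglia 2 (adjusted p = 0.0643) or microglia 3 (0.105), while the log2 fold change stayed within 3.28 and 3.85 as each library was left out.

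H2-Ab1, the beta chain that pairs with H2-Aa, lies close by (chromosome 17, 34257689 to 34269419, plus strand). It was at 511.7, 459.1 and 389.3 CPM in microglia and at 2983, 2878, 5955, 5199 and 1402 CPM in BMDM. The groups did not overlap here either, and the order of the BMDM libraries again put BMDM 3 and BMDM 4 at the top and BMDM 5 at the foot. H2-Ab1 was 8.12-fold higher in BMDM (3684 ± 1857 CPM, n = 5, against 453 ± 61.4, n = 3; log2 fold change 3.02, SE 0.56, adjusted p = 0.0114, edgeR quasi-likelihood). Leaving out microglia 1, 2 or 3 ended the call (adjusted p = 0.0632, 0.0681 and 0.101), with log2 fold changes of 2.79 to 3.21 over all libraries left out. The count of H2-Aa per count of H2-Ab1, partners in 1 molecule, was 0.667 to 1.10 in microglia and 0.871 to 1.496 in BMDM. Over the 8 libraries the ratio thus varied far less than the level of either chain. Among microglia alone the ratio varied more than H2-Ab1, whose highest level was only 1.31-fold its lowest.

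H2-Eb1, the beta chain of the E molecule (chromosome 17, 34305867 to 34316674, plus strand), varied more. It was at 491.5, 284.6 and 230.4 CPM in microglia and at 2604, 2661, 6546, 10104 and 320.9 CPM in BMDM. BMDM 1 to 4 were above all microglia libraries, and BMDM 5 lay inside the microglial range, 31.5-fold below BMDM 4. The log2 fold change was 3.73 (SE 0.88, 13.3-fold, adjusted p = 0.0447, edgeR quasi-likelihood), with means of 4447 ± 3874 CPM (n = 5) and 336 ± 138 CPM (n = 3). The call was lost without any 1 of the 3 microglia (adjusted p = 0.134, 0.238 and 0.273) and without BMDM 1, 2, 3 or 4 (0.0657, 0.0581, 0.105 and 0.0952). It was also lost with library totals alone (0.0626) and with limma-voom (log2 fold change 3.09, adjusted p = 0.159). Without BMDM 5 it stood at 4.00 (adjusted p = 0.00344).

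The count of H2-Eb1 per count of H2-Ab1 was 0.873, 0.925, 1.10, 1.94 and 0.229 in BMDM 1 to 5, and 0.961, 0.620 and 0.592 in microglia. Both the highest and the lowest of the 8 values came from BMDM, in the libraries with the most missing genes, BMDM 4 and BMDM 5, and the part of that in the ratio was not tested. The partner of the E beta chain, E alpha, is annotated as a pseudogene in the reference strain, and mice that lack it do not show the E molecule at the surface. H2-Ea-ps held 0 counts in all 8 libraries, H2-Pb also held 0, and the further E beta gene H2-Eb2 held 7 counts in all microglia and 45 in all BMDM.

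**Figure D3:**
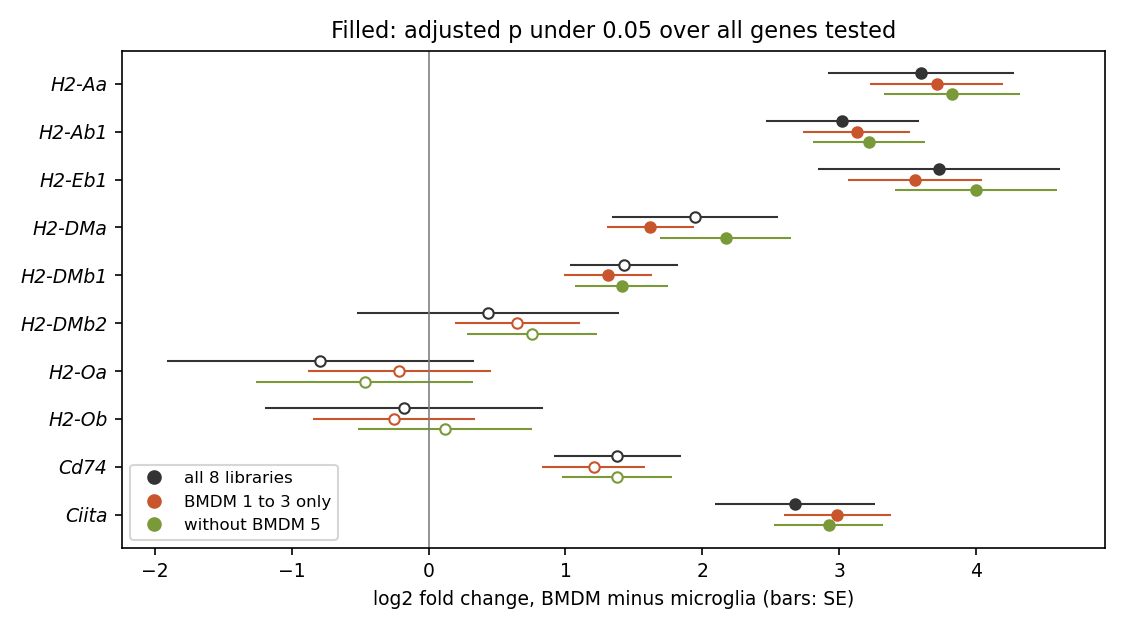
Log2 fold change of each class II gene, BMDM minus microglia (x axis), with SE bars; filled points have an adjusted p under 0.05 over all genes tested. Colours show the fit over all 8 libraries, with BMDM 1 to 3 only and without BMDM 5; H2-DMa and H2-DMb1 are open in the first and filled in the other fits, and H2-DMb2, H2-Oa and H2-Ob are open in each.

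Cd74, on chromosome 18, encodes the invariant chain, which is also a receptor for the cytokine MIF. It was at 607.8, 917.2 and 1353 CPM in microglia 1 to 3 and at 1523, 2017, 2999, 3472 and 2464 CPM in BMDM 1 to 5. The groups did not overlap, but microglia 3 came close to BMDM 1, and BMDM 5 was in the middle of the BMDM. The means were 2495 ± 772 CPM (n = 5) and 959 ± 374 CPM (n = 3), and Cd74 was not called (log2 fold change 1.38, SE 0.46, adjusted p = 0.169, edgeR quasi-likelihood). Among microglia Cd74 and the classical chains ran in opposite order: microglia 3 was highest for Cd74 and lowest for H2-Aa, H2-Ab1 and H2-Eb1, and microglia 1 the reverse.

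The mix of class II transcripts therefore differed by library. The 3 classical chains made up 82.2%, 78.5%, 84.6% and 83.4% of class II counts in BMDM 1 to 4, and Cd74 11.8% to 16.7%. In BMDM 5 the classical chains made up 49.8% and Cd74 41.7%. In microglia 1 to 3 the classical chains made up 65.4%, 49.8% and 35.4%, and Cd74 25.4%, 38.8% and 54.5%. For both shares BMDM 5 fell within the microglial range, at a higher summed class II level (5914 CPM against 2364 to 2481). The H2-O share was below that of microglia (0.485% to 0.877%) in every BMDM library, at 0.0347% to 0.128% in BMDM 1 to 4 and 0% in BMDM 5. The summed H2-O level overlapped, at 11.5 to 20.98 CPM in microglia and 14.2, 4.19, 24.4, 20.2 and 0 CPM in BMDM 1 to 5. The Ciita share of BMDM 5 (0.196%, 84 counts) was barely below the microglial range (0.202% to 0.532%), whose lowest value rests on 45 counts.

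Log2 ratios to Cd74 within a library, which need no library scaling, were compared for the 6 genes with at least 10 counts everywhere. H2-Aa per Cd74 was -0.12, -1.08 and -2.38 in microglia and 1.23, 0.96, 1.57, 1.13 and -1.01 in BMDM on the log2 scale. BMDM 1 to 4 were above all microglia and BMDM 5 was among them. The difference was 1.97 (exact two-sided permutation test over libraries, p = 0.0536, Benjamini-Hochberg over 6 ratios 0.214, smallest p possible 0.0179). For H2-Ab1 it was 1.46 (exact p = 0.0714, adjusted 0.214) and for H2-Eb1 1.70 (exact p = 0.214, adjusted 0.429). None of the 6 ratios passed, so a larger rise of the classical chains than of Cd74 was not established over the 8 libraries. With this many libraries, a ratio alone at the smallest p could not pass the adjustment, whatever its size. Without BMDM 5 the differences were 2.42, 1.78 and 2.48, each with no overlap and an exact permutation p of 0.0286, the smallest possible (adjusted 0.0571). Without microglia 3, the library highest in Cd74, they were smaller, at 1.38, 1.07 and 1.18. Without microglia 1 H2-Eb1 per Cd74 was at 2.30, and with BMDM 1 to 3 only at 2.28.

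H2-DMb1 per Cd74 showed the tightest values. It was -2.45, -2.46, -2.42, -2.68 and -2.45 in BMDM 1 to 5 on the log2 scale, and -2.22, -2.19 and -3.09 in microglia. The group difference was 0.01 (exact permutation p = 1), and the SD over BMDM was 0.10, against 1.02 for H2-Aa per Cd74. In BMDM 5 the H2-DMb1 ratio thus sat with the other BMDM while those of H2-Aa, H2-Ab1 and H2-Eb1 did not. The differences for H2-DMa and Ciita per Cd74 were 0.16 (exact permutation p = 0.804) and 1.10 (0.286), the latter 0.44 without microglia 3, 1.62 without BMDM 5 and 1.84 with BMDM 1 to 3 only.

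**Figure D4:**
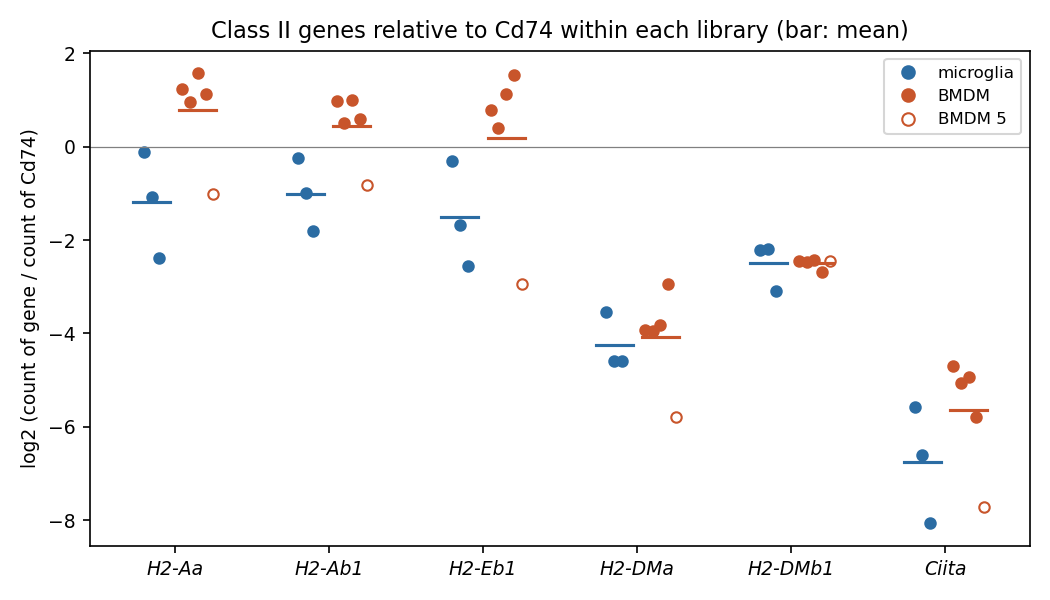
Log2 ratio of the count of each gene to the count of Cd74 in the same library (y axis); points are libraries, bars are means, and the open circle is BMDM 5. BMDM 1 to 4 lie above microglia for H2-Aa, H2-Ab1 and H2-Eb1 while BMDM 5 does not, and the H2-DMb1 ratio varies little over BMDM.

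The peptide exchange factor H2-M is a pair of H2-DMa and an H2-DMb chain. H2-DMb1 (chromosome 17, 34153072 to 34160230, plus strand) was at 130.5, 200.8 and 158.3 CPM in microglia and at 279.5, 366.2, 559.0, 543.6 and 449.7 CPM in BMDM. All BMDM were above all microglia, and BMDM 5 was in the middle of its group. The log2 fold change of 1.43 (SE 0.40) did not pass over 8 libraries (adjusted p = 0.0872, edgeR quasi-likelihood).

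H2-DMa (chromosome 17, 34119541 to 34139101, plus strand) was at 52.1, 37.8 and 55.96 CPM in microglia and at 100.4, 131.0, 212.1, 448.5 and 44.6 CPM in BMDM. BMDM 1 to 4 were above all microglia and BMDM 5 was within their range. The log2 fold change was 1.95 (SE 0.61, adjusted p = 0.137, edgeR quasi-likelihood) and not called, and it was 1.33 without BMDM 4. H2-DMa per H2-DMb1 ran from 0.358 to 0.379 over the first 3 BMDM and was 0.825 in BMDM 4 and 0.0993 in BMDM 5, against 0.188 to 0.399 in microglia, so the chains of this pair parted in the same libraries as H2-Eb1 and H2-Ab1. An exon stretch of 360 bases of H2-DMa overlaps Brd2 on the other strand, outside the last 500 bases of the transcript, and Brd2 had a log2 fold change of -0.28 (adjusted p = 0.848).

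With BMDM 5 left out, both H2-M genes were called (H2-DMa 2.17, adjusted p = 0.0205, and H2-DMb1 1.41, adjusted p = 0.0294, edgeR quasi-likelihood), so that 6 of 10 genes were called, where 3.38% of all genes were called higher. With BMDM 1 to 3 only, the same 6 genes were called and 6.35% of all genes were. Cd74 was not called in either fit (adjusted p = 0.061 and 0.0555). DESeq2 on all 8 libraries called 7 of 10 genes, Cd74 included (log2 fold change 1.47, adjusted p = 0.00558), where it called 3.47% of all genes higher. Limma-voom called 3 of 10 (H2-Aa, H2-Ab1 and H2-DMb1), where it called 0.972% of all genes higher.

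H2-DMb2 (chromosome 17, 34143307 to 34151555, plus strand), the other H2-DMb chain, was at 4.21, 10.6 and 11.2 CPM in microglia and at 11.3, 14.3, 14.4, 18.5 and 0 CPM in BMDM. BMDM 1 to 4 were above all microglia by a narrow margin, and BMDM 5 held 0 counts, which allows up to 0.415 CPM (3 counts, counting error only). It was not called (log2 fold change 0.43, SE 0.95, adjusted p = 0.917, edgeR quasi-likelihood), and limma-voom gave -0.39. H2-DMb1 and H2-DMb2 are near copies. They shared 254 runs of 75 bases (the read length) on the same strand, 15.8% of those of H2-DMb1, and the longest run they shared in their last 500 bases was 34 bases. The other 8 genes shared 0 such runs with any other annotated gene on the same strand. The sources used here do not give how reads matching both copies were counted, so the level of H2-DMb2, 0.0258 to 0.0710 counts per count of H2-DMb1 where detected, is uncertain.

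The H2-O genes, which encode the restraining factor, were detected at few counts. H2-Oa (chromosome 17, 34092340 to 34095234, plus strand) was at 10.2, 4.02 and 8.68 CPM in microglia and at 5.99, 1.97, 11.7, 2.39 and 0 CPM in BMDM. The groups overlapped, with BMDM 3 the highest and BMDM 5 the lowest of the 8 libraries. H2-Ob (34238903 to 34254414, plus strand) was at 10.8, 7.44 and 9.57 CPM in microglia and at 8.26, 2.22, 12.7, 17.8 and 0 CPM in BMDM, again overlapping.

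Neither H2-O gene was called (H2-Oa log2 fold change -0.79, SE 1.12, adjusted p = 0.857; H2-Ob -0.18, SE 1.02, adjusted p = 0.973, edgeR quasi-likelihood), and a p of this size does not show that the levels are alike. Counts were low, from 15 to 205 in the libraries with any, and both were 0 in BMDM 5. H2-Ob turned positive without BMDM 2 (0.07) or without BMDM 5 (0.12), and limma-voom moved it to -1.58, or -0.84 with sample quality weights. H2-Oa moved to -1.98 with limma-voom and to -1.55 without BMDM 3, none of these called. H2-Oa shares 321 exon bases with the antisense gene BC051537, which held 29 counts in all libraries together.

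Ciita (chromosome 16, 10480059 to 10528418, plus strand) was at 12.7, 9.45 and 5.01 CPM in microglia and at 58.7, 60.0, 98.3, 62.7 and 11.6 CPM in BMDM. BMDM 1 to 4 were above all microglia and BMDM 5 was between microglia 1 and microglia 2. The mean was 58.3 ± 30.8 CPM (n = 5) against 9.06 ± 3.87 CPM (n = 3), 6.40-fold higher (log2 fold change 2.68, SE 0.59, adjusted p = 0.0275, edgeR quasi-likelihood). The call was lost without any 1 of the 3 microglia (adjusted p = 0.0608, 0.128 and 0.181) and without BMDM 1, 2, 3 or 4 (0.0567, 0.0563, 0.0833 and 0.0700). It was also lost with library totals alone (0.0620) and with limma-voom (0.0832), while the log2 fold change ran from 2.33 to 2.99 over the libraries left out. Ciita and the classical chains were each lowest in microglia 3 among microglia and in BMDM 5 among BMDM, and Ciita and both A chains were highest in BMDM 3. Ciita overlaps Dexi on the other strand for 329 exon bases, none in the last 500, and Dexi was not called (log2 fold change 0.87, adjusted p = 0.680).

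Markers of other cell types were read in the same libraries. Of 10 dendritic cell markers, which mark cells rich in class II, 9 were tested, all with a positive log2 fold change (median 2.87). Of these 1 was called higher, the migration receptor Ccr7 (log2 fold change 6.15, adjusted p = 0.0346, edgeR quasi-likelihood). The 10 markers summed to 16.1 to 25.03 CPM in microglia and 41.5 to 123.7 CPM in BMDM, lowest in BMDM 5. There 5 of the 10 markers were at 0. Ccr7 was at 40.1, 5.54, 25.3, 29.0 and 0.276 CPM in BMDM 1 to 5 and at most 0.603 CPM in microglia, and Cd209a was at 0 in microglia 1 to 3 and in BMDM 1, 2 and 5. The part of dendritic cells in the class II difference was not tested.

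The B cell list summed to 12.7 to 25.8 CPM in microglia and 14.2 to 39.9 CPM in BMDM. Of its 3 tested genes 0 were called (median log2 fold change 0.54), and Cd79a held 0 counts in microglia and 7 in BMDM. Among 5 tested markers of border-associated macrophages, a further class II-bearing population of the brain, 3 were called higher (Pf4, F13a1 and Ms4a7). The median log2 fold change of the 5 was 2.79. That list summed to 371 to 1029 CPM in BMDM and 46.1 to 99.7 CPM in microglia, with Lyve1 at 10 counts in all microglia and 10 in all BMDM. T and NK cell markers summed to 15.1 to 42.1 CPM in BMDM and 2.00 to 5.47 CPM in microglia, with 0 of 5 called (median log2 fold change 3.21). Neutrophil markers summed to 44.5 to 107.9 CPM in BMDM and 2.67 to 12.3 CPM in microglia, with S100a8 called higher (median 2.84). Of 9 microglial markers 7 were called lower in BMDM, and 0 had a positive log2 fold change. All 9 monocyte-derived markers were called higher, and they summed to 3386, 1939, 3590, 3092 and 726 CPM in BMDM 1 to 5. Itga4, in the monocyte-derived list, encodes CD49d, a protein of the sorting gates, so its direction between the groups was set by the sort. The low sum of BMDM 5 came with a low level of Lyz2, the lysozyme gene, at 220.6 CPM there and 1269 to 2279 CPM in BMDM 1 to 4. BMDM 5 was also the lowest BMDM library for Ly6c2 (61.1 CPM, against 84.3 to 390.9) and Chil3 (7.88, against 36.1 to 58.0). The same held for Plac8 (47.0, against 239.4 to 429.4), Ms4a4c (63.8, against 74.4 to 129.7) and, narrowly, Ly6i (22.5, against 23.8 to 308.2). Other markers went the opposite way, since BMDM 5 was the highest BMDM library for F10 (89.4 CPM, against 32.7 to 59.8), for Itga4 (97.2, against 48.6 to 95.8) and for the dendritic marker Clec10a (25.2, against 1.91 to 22.5). The border-associated sum was lowest in BMDM 4 (371 CPM), a library high in the classical chains. The part of these markers in the class II levels was not tested.

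Genes that work with class II were taken from 9 lists of 70 genes. Of the 64 tested, 3 were called (Cxcr4, Il10 and Ctsd), against 1.93% of all genes. In the class II transcription complex (RFX, NF-Y and CREB subunits, which sit on the X and Y boxes) 0 of 7 were called, with a median log2 fold change of 0.15, against 0.08 over all genes. Its smallest p was that of Rfx5, the DNA-binding RFX subunit, at 19.3 to 30.7 CPM in microglia and 10.03 to 16.4 CPM in BMDM (log2 fold change -1.10, SE 0.40, adjusted p = 0.203, edgeR quasi-likelihood). All BMDM were below all microglia for Rfx5, as for 8.66% of all genes. Of 11 genes of interferon gamma signalling and Ciita induction 0 were called (median 0.07), and the smallest p was that of Socs1, a feedback inhibitor induced by interferons. Socs1 was at 11.5 to 17.9 CPM in microglia and at 41.0, 20.3, 52.7, 195.6 and 21.3 CPM in BMDM 1 to 5, with no overlap and BMDM 4 far above the rest (log2 fold change 2.20, SE 0.69, adjusted p = 0.144). Without BMDM 4 it was 1.23, and with BMDM 1 to 3 only 1.41 (adjusted p = 0.0282).

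Of 8 genes for signals that lower class II, 1 was called higher, Il10, a cytokine that reduces class II at the macrophage surface (median of the list 0.06). Il10 was at 0.526, 6.03 and 1.22 CPM in microglia and at 25.3, 27.0, 100.1, 46.5 and 154.5 CPM in BMDM (log2 fold change 4.79, SE 0.90, adjusted p = 0.0134, edgeR quasi-likelihood). BMDM 5, the lowest of the BMDM for the classical chains, was the highest for Il10, while BMDM 3 was high for both. The Il10 call was lost without microglia 1 (0.0732) or microglia 3 (0.157) and with limma-voom (0.0634), and the log2 fold change rose to 6.32 without microglia 2, the microglia library with the most Il10.

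Of 9 genes of endosomal processing 0 were higher and 1 was lower (median -0.52). Ctsd, a lysosomal aspartic protease, was at 1778, 1685 and 4503 CPM in microglia and at 742, 602, 966, 838 and 461 CPM in BMDM (log2 fold change -1.88, SE 0.44, adjusted p = 0.0429, edgeR quasi-likelihood). All BMDM were below all microglia, but the adjusted p reached 0.329 without microglia 3 and the call was lost in 10 of 18 alternatives. Ctss, the protease that trims the invariant chain in macrophages and dendritic cells, stood at 0.06 (SE 0.45, adjusted p = 0.979). Of 6 genes for turnover of class II and Cd74 0 were called (median -0.10). The smallest p was that of Cd83, which holds class II at the surface of dendritic cells by opposing its ubiquitination (log2 fold change -1.50, SE 0.44, adjusted p = 0.105), with 374.6 to 787.5 CPM in microglia and 129.6 to 348.7 CPM in BMDM.

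The CD74 receptor list holds MIF, its relative DDT and their signalling receptors. Of 4 genes tested 1 was higher (median 1.16), Cxcr4, a chemokine receptor that pairs with CD74 in MIF signalling. Cxcr4 was at 38.9, 48.9 and 27.1 CPM in microglia and at 159.9, 159.7, 202.9, 236.7 and 133.0 CPM in BMDM. All BMDM were above all microglia, and BMDM 5, although lowest of the BMDM, was close to BMDM 1 and BMDM 2 (log2 fold change 2.22, SE 0.38, adjusted p = 0.00758, edgeR quasi-likelihood). The call was lost without microglia 1 (adjusted p = 0.0615) or microglia 3 (0.0835). Mif itself stood at 0.63 (SE 0.42, adjusted p = 0.601).

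Of the 7 costimulation and checkpoint ligand genes tested 0 were called (median 0.94), and the smallest p was that of Cd40, through which T cells license antigen-presenting cells. Cd40 was at 5.33 to 18.4 CPM in microglia and 21.7 to 69.2 CPM in BMDM (log2 fold change 2.00, SE 0.52, adjusted p = 0.0709, edgeR quasi-likelihood), with no overlap. Cd86, a ligand of CD28, stood at -0.98 (SE 0.35, adjusted p = 0.203). Class I presentation, the route to CD8+ T cells, had 0 of 12 called and a median of 0.22, and its smallest p was that of Erap1, the peptide-trimming protease of the endoplasmic reticulum (log2 fold change -1.20, SE 0.38, adjusted p = 0.142). B2m, the class I light chain, stood at 0.43 (SE 0.45) and Nlrc5, the class I counterpart of Ciita, at -0.13 (SE 0.47), neither called.

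**Figure D5:**
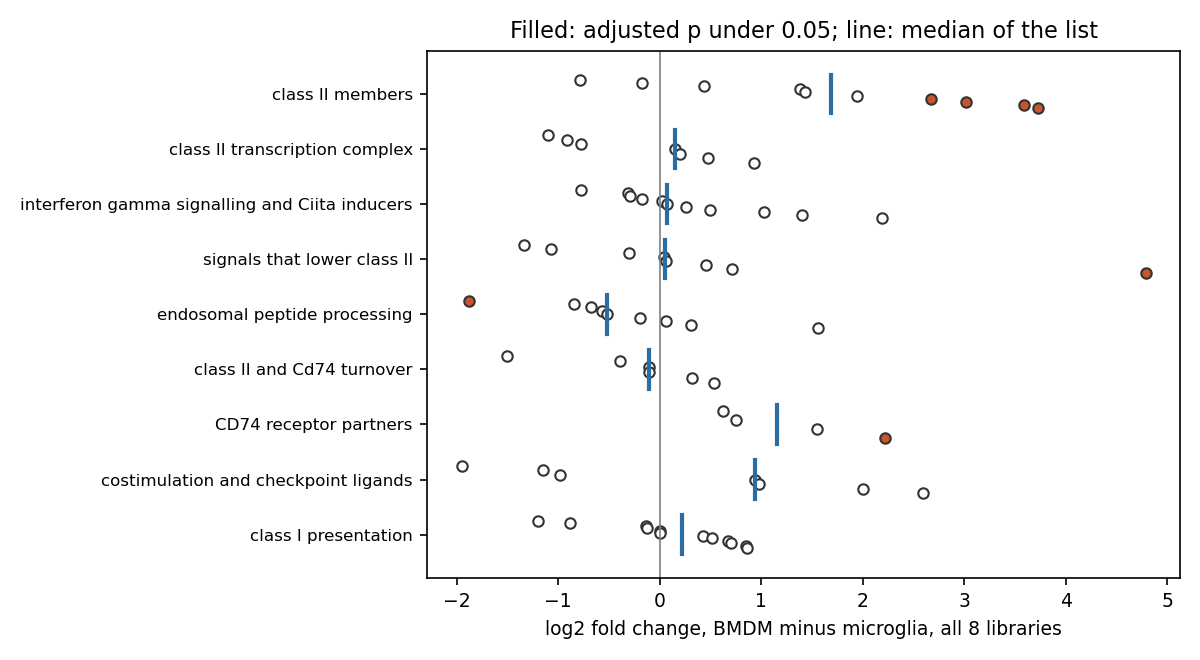
Log2 fold change, BMDM minus microglia, over all 8 libraries (x axis) for the class II genes and the tested genes of 8 lists (y axis); each point is a gene, filled points have an adjusted p under 0.05, and the blue line is the list's median. The class II genes have the highest median, 1.69. The class I list has a median of 0.22, with 7 of its 12 genes above 0.

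The genes whose profile over the 8 libraries was most like the mean log2 CPM of H2-Aa, H2-Ab1, H2-Eb1 and Cd74 were sought among the 4884 genes that averaged 20 CPM or more. They were Fgr, C5ar1, Psmb10, H13 and U2af1, with Pearson's r of 0.981 to 0.988 over 8 libraries. The libraries fall into the compared groups and share their depth and detection, so these r values describe likeness only. Fgr, a Src family kinase of myeloid cells, was at 7.10, 6.24 and 7.23 CPM in microglia and at 52.9, 44.2, 111.1, 101.7 and 25.01 CPM in BMDM. Like the classical chains it was highest in BMDM 3 and BMDM 4 and lowest of the BMDM in BMDM 5 (log2 fold change 3.29, SE 0.52, adjusted p = 0.00396, edgeR quasi-likelihood), and its call held in all 18 alternatives. Psmb10, a subunit of the immunoproteasome, was at 48.4 to 60.8 CPM in microglia and 85.0 to 189.4 CPM in BMDM, with no overlap and no call (log2 fold change 1.29, SE 0.36, adjusted p = 0.0878). C5ar1, the receptor for complement C5a, was not called either (0.97, SE 0.35, adjusted p = 0.209), nor were H13 (1.26, SE 0.39) and U2af1 (1.11, SE 0.35).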

How the data were processed

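RNA was sequenced from 3 microglia and 5 BMDM libraries made with a 3′ mRNA kit (QuantSeq FWD), as single reads of 75 bases, per the labels' protocols. The authors deposited raw read counts per gene, in whole numbers. Per the submitters' processing notes, the tools were featureCounts, STAR, cutadapt, FastQC and DESeq2 and the build was mm10, with no version given. The strand setting and the treatment of reads with several matches are not given in the sources used here. Groups and replicate numbers come from the sample titles.

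The counts were tested in R 4.3.3 with edgeR 4.0.16 (filterByExpr with minimum count 10 and total 15, TMM factors, robust quasi-likelihood fit, BMDM minus microglia, Benjamini-Hochberg over 16467 genes, threshold 0.05). Standard errors were derived from the F statistic. Ratios to Cd74 used counts plus 0.5 and exact permutation tests over libraries. Alternatives were DESeq2 1.42.0, limma 3.58.1 voom with and without sample quality weights, RLE factors, library totals, no filter or 10 CPM in 3 libraries, a replicate block, BMDM 1 to 3 only, rRNA (Gm42418 and the mitochondrial rRNA genes) removed, and the omission of each library. On counts simulated for all 8 libraries (14707 genes, 200 changed), the test found 6%, 26%, 66% and 66% of genes whose simulated log2 change was 1, 2, 3 and 4, and 2 of its 84 calls were false. Changes of 1 or 2 were thus mostly missed, and some of 3 or 4 were missed too, so an uncalled gene can have changed by as much. The changed genes were drawn only from those above a minimum expected count, so genes below it were not covered.

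Genes named are all 10 members, called genes of the 9 partner lists or the gene with the smallest p where a list has none, markers needed to say which are at 0, and the 5 genes most like the class II profile. Ctss, Mif, Cd86, B2m, Nlrc5, H2-Ea-ps, H2-Pb, H2-Eb2 and genes overlapping a member were named outside that rule, after their values were seen. So were the markers Ccr7, S100a8, Pf4, F13a1, Ms4a7, Lyz2, Ly6c2, Chil3, Plac8, Ms4a4c, Ly6i, F10, Itga4 and Clec10a. The members and lists were chosen with earlier results of these data known. Positions and exons are from GENCODE M21 (GRCm38), and promoters from RefSeq (GRCm38.p6). Promoters were matched by symbol, and H2-Ab1, Cd74 and Ciita were not matched.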

Additional observations from a re-analysis of the deposited data

Results flagged for a closer look

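Among 17 quantities checked for a library far from the other BMDM (Dixon's test, 5 libraries), 4 stood out, all log2 ratios to Cd74 within a library, and chance gives about 1 in 20. BMDM 5 was lowest for H2-Aa (-1.01), H2-Ab1 (-0.81) and H2-Eb1 (-2.94) per Cd74, where the other BMDM were at 0.96 to 1.57, 0.51 to 0.99 and 0.40 to 1.54. These ratios share the Cd74 count of 1 library and are not independent of each other. BMDM 4 was lowest for H2-DMb1 per Cd74 (-2.68), against -2.46 to -2.42 in the other BMDM, a gap small in size beside the spread of microglia (-3.09 to -2.19).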

How the results depend on the processing

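The log2 fold changes of H2-Aa, H2-Ab1, H2-Eb1, H2-DMa, H2-DMb1, Cd74 and Ciita stayed positive in all 18 alternatives. Class II genes called (4, where 1.11% of all genes were called higher) became 7 with DESeq2 (3.47%) and 7 with voom quality weights (6.46%). They became 2 with library totals alone (1.06%) and 0 to 6 with a library left out (0.321% to 3.38%). The count was 0 without microglia 2 (0.510%) or microglia 3 (0.321%). Genes called (317) became 987 with DESeq2, 721 without filter, 2748 with quality weights, 2340 with BMDM 1 to 3 only and 104 to 1138 with a library left out. Partner genes called (3) became 7 with DESeq2, 10 without filter, 16 with quality weights, 14 with BMDM 1 to 3 only and 0 to 10 with a library left out. With the replicate number as a block on libraries 1 to 3 of each group, 7 class II genes, 3244 genes and 23 partner genes were called, with 9.13% of all genes called higher. Libraries of the same number had correlated deviations of 0.137, 0.0903 and 0.238, each the highest for its library, a hint from the data only. H2-DMb2 turned negative with limma-voom (-0.39), which also lowered H2-Oa to -1.98 and H2-Ob to -1.58, and H2-Ob turned positive without BMDM 2 (0.07) or BMDM 5 (0.12), over -0.67 to 0.12 with a library left out. The small difference of H2-DMa per Cd74 turned negative without microglia 2 (-0.02), microglia 3 (-0.01) or BMDM 4 (-0.12; highest 0.59), and that of H2-DMb1 without microglia 3 (-0.29), BMDM 1 (-0.0017) or BMDM 3 (-0.0072; highest 0.17). Without microglia 3 the H2-Aa, H2-Ab1, H2-Eb1 and Ciita ratios fell to 1.38, 1.07, 1.18 and 0.44. No ratio to Cd74 passed after adjustment in any alternative. An exact permutation p cannot go below 0.1 with BMDM 1 to 3 only, 0.0476 without a microglia library or 0.0286 without a BMDM library. After adjustment over 6 ratios, none could pass in the first case, and in the others only several ratios at the smallest p together. The number of libraries thus limits what could pass. Yet without BMDM 1, 2, 3 or 4 the smallest exact permutation p was 0.0857, above the smallest possible there. Over the 8 libraries it was 0.0536, where 0.0179 was possible. The median of all genes moved by -0.19 with limma-voom, -0.13 without microglia 3 and 0.13 with library totals. The cause of these shifts was not tested. H2-Oa, H2-Ob, H2-DMb2 and Ciita had the fewest counts of the class II genes, at 0 to 859 a library. The values of 0 were all in BMDM 5. That library had the largest total of the BMDM (9169531 counts), of which Gm42418 took 48.9%, and lacked 7.47% of expected genes. The cause of its 0 counts was not tested.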
